A study of Mus musculus with 12 samples.

Results

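Aminoacyl-tRNA synthetases are the enzymes that join each amino acid to its transfer RNA, the step that lets the ribosome read the genetic code. Their messenger RNA was followed in RAW 264.7 cells, a mouse macrophage line, across 4 treatments. Members were all entries of the read-count table whose symbol names a synthetase by amino acid letter, and 37 of the 55137 entries in the table matched. All 37 passed the filter on low counts, which left 14505 genes for testing. The table uses older symbols, so that the genes now called Aars1, Kars1 and Wars1 appear as Aars (ENSMUSG00000031960), Kars (ENSMUSG00000031948) and Wars (ENSMUSG00000021266). By the known location of their proteins, 18 members act in the cytosol, 17 act in mitochondria, and 2, Gars and Kars, make both forms from the same gene.

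The 4 groups of 3 libraries were PSTO+LPS, PSTO, LPS and control. Cells of the PSTO+LPS and PSTO groups received the agent PSTO at 20 uM for 30 min, and cells of the LPS and control groups received vehicle instead. LPS, a component of the bacterial outer membrane that macrophages sense through a Toll-like receptor, was then given at 500 ng/mL to the PSTO+LPS and LPS groups, and harvest followed after 6 h. What PSTO stands for is not spelled out in the labels, though garlic extract is named in the title of the series. All libraries come from a single line, and nothing says that the triplicates were separate cultures, so p-values measure the spread between these libraries. Totals ran from 15817880 to 28625784 reads. Libraries of the same group correlated at a Spearman rho of 0.988 or above over genes. The 8 macrophage markers summed to between 7690 and 10600 counts per 1000000 reads (CPM) in every library, whereas the summed markers of T cells, B cells, fibroblasts and epithelium reached at most 0.755 CPM. In bulk RNA a change in cell number and a change in RNA per cell cannot be told apart.

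The cytosolic enzymes supply the ribosomes that read nuclear messages, while the mitochondrial set, which is also encoded in the nucleus, supplies the separate ribosomes that read the mitochondrial genome. Several cytosolic members, Eprs, Iars, Lars, Mars, Qars, Rars, Dars and Kars, are held together in the multisynthetase complex. Many cytosolic synthetase genes are known targets of ATF4, a transcription factor made when amino acids run short or stress kinases phosphorylate eIF2-alpha. Wars, the cytosolic tryptophanyl-tRNA synthetase, is known as an interferon-inducible gene in macrophages.

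Promoter sequences were looked up because of the 2 inputs named above, ATF4 and interferon. RefSeq windows of 300 bases, 250 before and 50 after the start site in the build GRCm38.p6, were found for 27 of the 37 members. The core of the C/EBP-ATF response element, TGATGNAA, was searched on both strands and was present in 5 of these 27 (18.5%), Aars, Gars, Iars, Tars and Yars. Among 27025 genes with such windows 4.51% held it. The core of the interferon-stimulated response element, GAAANNGAA, stood in the window of Qars alone (3.7% of the 27), against 9.76% of all genes. A match in these letters is not a measured binding site. Matched stretches are printed 5′ to 3′ with the TGATGNAA match, or its reverse complement, in capitals.
Aars, chr8:111033840-111033869, plus strand: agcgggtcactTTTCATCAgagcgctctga
Gars, chr6:55037960-55037989, plus strand: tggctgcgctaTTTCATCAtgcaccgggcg
Iars, chr13:49682126-49682155, plus strand: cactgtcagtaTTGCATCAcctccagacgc
Tars, chr15:11399655-11399684, minus strand: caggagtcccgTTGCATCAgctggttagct
Yars, chr4:129189895-129189924, plus strand: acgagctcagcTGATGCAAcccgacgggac
Of these 5 genes Aars (log2 change 0.45) and Yars (0.17) were called higher in PSTO against control (edgeR adjusted p under 0.05). Yars kept that call in 7 of 20 alternative analyses. Gars (0.11), Iars (0.06) and Tars (0.06) were not called there. In PSTO+LPS against LPS Aars rose (0.28), Iars fell (-0.31), and Gars, Tars and Yars were not called. No window was found for Cars and Nars, so their promoters were not searched. A link between the motif and PSTO was not tested.

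Cytosolic synthetase genes were expressed well above the mitochondrial ones. Per 1000 bases of transcript, the median level in control was 45.9 CPM over the 18 cytosolic members, with a range of 18.7 (Cars) to 127 (Nars). Over the 17 mitochondrial members it was 10.2 CPM per 1000 bases, with a range of 1.87 (Mars2) to 40.4 (Lars2). On this length-scaled level Nars at 127 ± 1.99 and Rars at 116 ± 3.38 led in control (SD, n = 3), and Gars followed at 79.6 ± 5.77. Lars2, which charges mitochondrial leucine tRNA, stood apart within its class, since the next mitochondrial members, Yars2 and Tars2, had 24.3 ± 0.571 and 24.2 ± 1.65 CPM per 1000 bases and did not differ beyond their spread. In PSTO+LPS the medians were 52.0 and 7.25 CPM per 1000 bases for the cytosolic and the mitochondrial class. The PSTO group had 47.1 and 8.78, and the LPS group 55.8 and 7.71.

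With LPS the summed level of the 18 cytosolic genes stood higher relative to that of the 17 mitochondrial genes. How far each sum moved on its own depended on the scaling. The log2 difference of the cytosolic sum was 0.18 in LPS against control and 0.12 in PSTO+LPS against PSTO with TMM factors, but 0.030 and 0.0073 with upper-quartile factors. That of the mitochondrial sum was -0.16 and -0.17 with TMM factors, and -0.31 and -0.28 with upper-quartile factors. Leaving out LPS replicate 2 brought the mitochondrial value of LPS against control to -0.089 (TMM factors). The values that follow use TMM factors. Cytosolic sums were 3300, 3186 and 3254 CPM in PSTO+LPS libraries, 3020, 2957 and 2980 CPM in PSTO libraries, 3292, 3298 and 3247 CPM in LPS libraries, and 2907, 2862 and 2901 CPM in control libraries. Each library with LPS lay above each library without it. Mitochondrial sums were 523.3, 549.4 and 531.4 CPM in PSTO+LPS libraries, 606.2, 601.9 and 597.9 CPM in PSTO libraries, 574, 516.7 and 614.1 CPM in LPS libraries, and 647.1, 640.9 and 607.2 CPM in control libraries. Here the PSTO+LPS libraries lay below all PSTO libraries, while the LPS and control libraries overlapped.

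The ratio of cytosolic to mitochondrial sums averaged 6.08 ± 0.256 in PSTO+LPS, 4.96 ± 0.041 in PSTO, 5.80 ± 0.551 in LPS and 4.58 ± 0.173 in control (SD, n = 3). It was higher in every library with LPS than in any library without it. Lars2 alone set much of the mitochondrial sum and varied most in LPS, where it had 195.9, 151.1 and 223.3 CPM. With Lars2 left out the ratio was 9.34 ± 0.153 in PSTO+LPS, 7.001 ± 0.191 in PSTO, 8.68 ± 0.356 in LPS and 6.09 ± 0.163 in control, and the LPS and control mitochondrial sums no longer overlapped (365.6 to 390.7 against 461.9 to 482.9 CPM). No test was made on these sums.

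**Figure D1:**
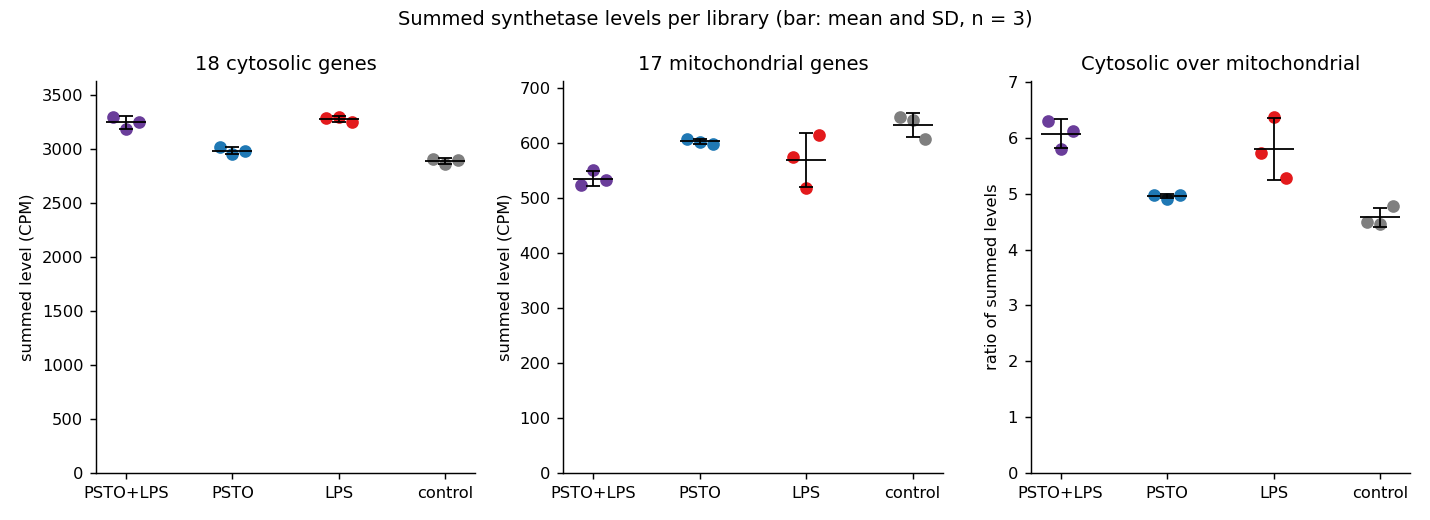
Summed level in CPM of the 18 cytosolic genes (left) and the 17 mitochondrial genes (middle), and the ratio of the 2 sums (right), in each library. Points are libraries, bars the mean and SD of 3; the ratio runs from 5.29 to 6.38 in the 6 libraries with LPS and from 4.47 to 4.98 in the 6 without it.

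LPS was first set against control, which shows the response of the synthetase genes to LPS when no PSTO was given. Cytosolic members mostly rose and mitochondrial members mostly fell. Of the 37 members, 18 rose and 12 fell at an edgeR adjusted p under 0.05, taken over all 14505 genes tested. Of all genes tested, 62.9% were called in this comparison, 32.8% higher and 30.1% lower. In the cytosolic class 12 of 18 rose and 3 fell, and the median log2 change was 0.24. In the mitochondrial class 4 of 17 rose and 9 fell, with a median of -0.41, against 0.0078 over all genes tested. With upper-quartile scaling, which moved the median of all genes by -0.152, the counts were 9 higher and 4 lower for the cytosolic class and 1 higher and 9 lower for the mitochondrial class. The 9 mitochondrial falls held in number under every alternative run.

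Kars, the lysyl-tRNA synthetase gene that makes both forms, rose most. It had 206.1, 195.3 and 191.4 CPM in LPS, against 103.9, 94.7 and 104.8 CPM in control. The groups lay far apart, and the log2 change was 0.97 (SE 0.06, adjusted p = 1.37e-10). Farsb and Farsa, the genes of the beta and alpha subunits of the cytosolic phenylalanyl-tRNA synthetase, rose by like amounts. Farsb had 120.5, 134.8 and 118.7 CPM in LPS, against 80.1, 81.6 and 85.2 CPM in control (log2 change 0.60, SE 0.06, adjusted p = 3.93e-08). Farsa had 115.7, 125.3 and 125.6 CPM in LPS, against 80.4, 85.4 and 81.2 CPM in control (log2 change 0.57, SE 0.06, adjusted p = 3.35e-08). Neither gene's LPS and control libraries overlapped.

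Wars had 154.1, 156.1 and 159.5 CPM in LPS, against 106.3, 103.2 and 106.6 CPM in control. This rise of 0.57 on the log2 scale (SE 0.05, adjusted p = 1.11e-08) stands beside a median of 6.72 over 24 interferon-stimulated genes, all of which rose. Gars, for glycine, had 228.4, 221.3 and 229.5 CPM in LPS, against 196.9, 173.5 and 197.7 CPM in control, without overlap. Its log2 change was 0.26 (SE 0.06, adjusted p = 0.000801), and the call was lost with upper-quartile scaling (adjusted p = 0.129). Hars, Yars, Iars, Rars, Tars, Nars, Dars, Lars and Aars were the other cytosolic rises, from 0.40 in Hars to 0.12 in Aars. The calls of Aars and Lars were lost in 12 and 9 of 20 alternatives, and both values turned negative with upper-quartile scaling (-0.034 and -0.010). The cytosolic falls were Mars (-0.48), Qars (-0.30) and Sars (-0.25), which charge methionine, glutamine and serine.

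The deepest falls were all mitochondrial. Cars2, for cysteine, had 4.36, 6.23 and 5.32 CPM in LPS, against 15.3, 16.2 and 15.8 CPM in control. Its log2 change was -1.58 (SE 0.15, adjusted p = 1.53e-08), so that the fitted level fell by 66.5%. Vars2, for valine, had 10.97, 9.71 and 9.47 CPM in LPS, against 30.5, 30.0 and 28.0 CPM in control (log2 change -1.55, SE 0.13, adjusted p = 2.4e-09). Neither gene had overlapping groups. Pars2, for proline, was the least abundant member in CPM and fell by 0.82 (SE 0.23, adjusted p = 0.00474). Mars2 (adjusted p = 2.55e-05), Aars2, Iars2, Hars2 and Tars2 also fell, from -0.70 in Mars2 to -0.40 in Tars2.

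The 4 mitochondrial rises were Fars2 (0.43), Lars2 (0.27), Wars2 (0.22) and Yars2 (0.18), and those of Lars2, Wars2 and Yars2 were lost in at least 10 of 20 alternatives. The LPS and control libraries of Lars2 and Yars2 overlapped. The strand setting of the counting is not given in the sources used here, so reads of genes that overlap on opposite strands could have been exchanged. By the GRCm38 annotation Rab3gap2 covers 22.9% of the exon bases of Iars2 and fell by 0.78 in LPS (SE 0.06, adjusted p = 8.32e-10), and its part in the fall of Iars2 was not tested. Naxd covers 5.83% of Cars2 and fell by 0.295 (SE 0.10, adjusted p = 0.0176). Hars and Hars2, which are compared as a pair below, share 195 exon bases on opposite strands. These are 7.97% of the exon bases of Hars and 4.56% of those of Hars2.

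**Figure D2:**
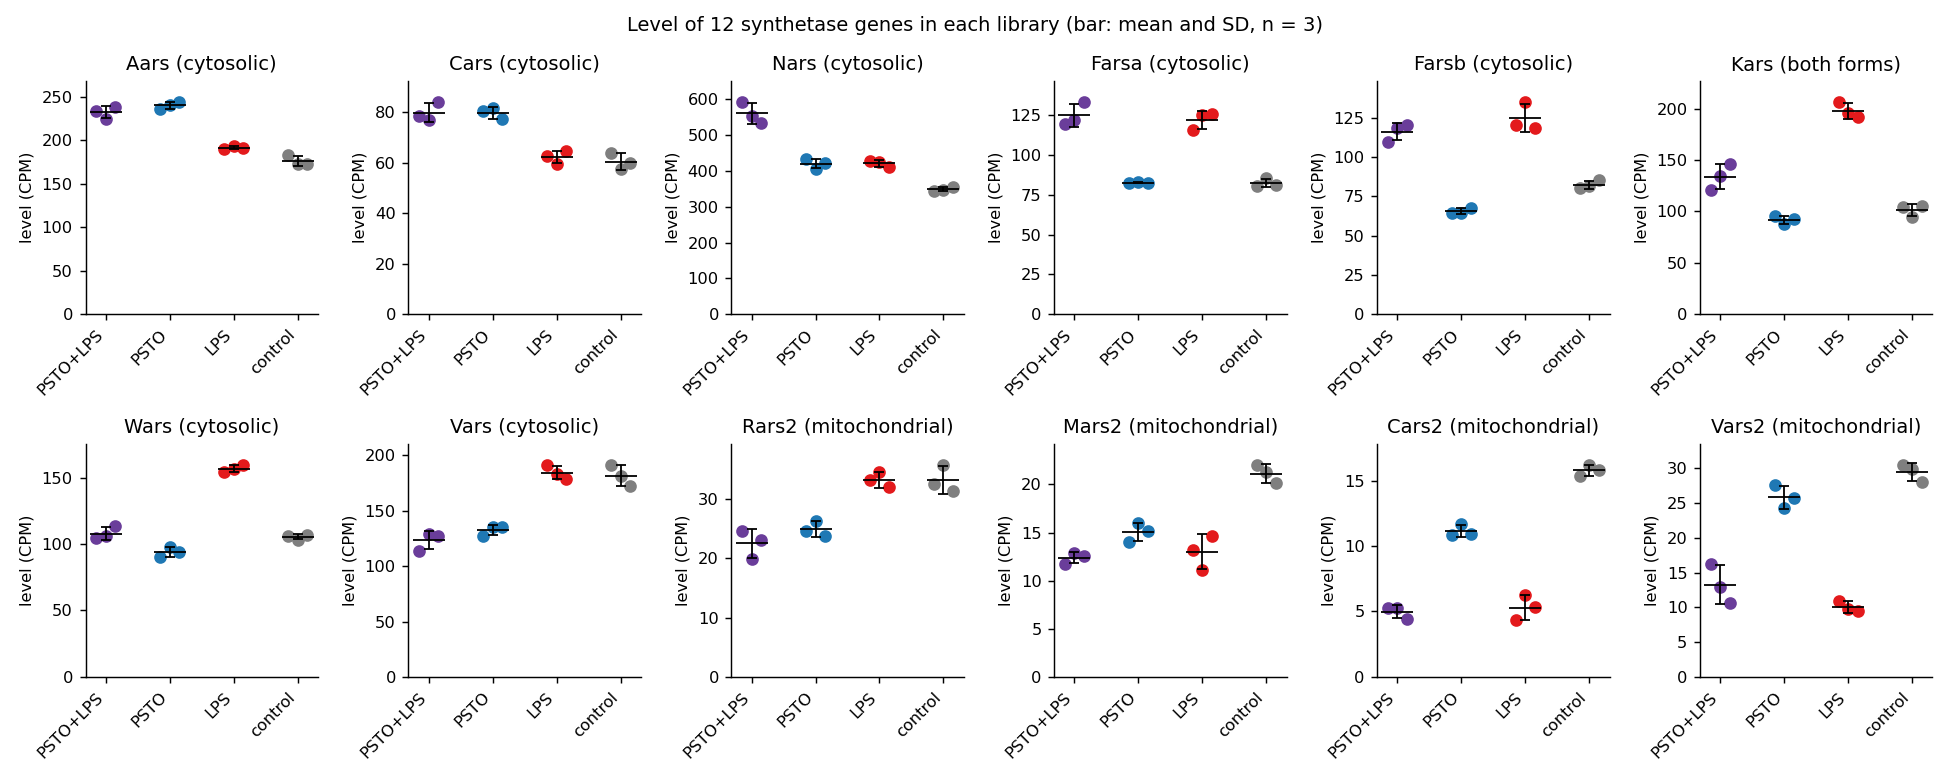
Level in CPM of 12 synthetase genes in each library, on linear axes that start at 0. Points are libraries and bars the mean and SD of 3; Cars2 and Vars2 are low in all 6 libraries with LPS, Aars and Cars are high in all 6 with PSTO, and Kars and Wars are highest in the 3 LPS libraries.

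Among the members, each compartment has for 14 amino acids a gene of its own that serves only that amino acid. This allows each mitochondrial form to be set beside its cytosolic partner. Phenylalanine, with 2 cytosolic subunit genes, and glutamate and proline, which share Eprs in the cytosol, were left out of these pairs. Threonine was kept, with Tars as its cytosolic form. Tarsl2, a further threonyl-tRNA synthetase gene, is not a member, and its change is given below. In LPS against control the mitochondrial form had the lower log2 change in 12 of 14 pairs, with a median difference of -0.57. Wide gaps were in cysteine, where Cars2 changed by -1.58 and Cars by 0.04, and in valine, where Vars2 changed by -1.55 and Vars by 0.02. Neither Cars nor Vars was called. Leucine and serine went the other way, with changes of 0.27 in Lars2 and 0.14 in Lars, and of -0.11 in Sars2, which was not called, and -0.25 in Sars. In PSTO+LPS against PSTO the mitochondrial form had the lower change in 11 of 14 pairs, with a median difference of -0.51. These are counts of fitted values, with no test.

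**Figure D3:**
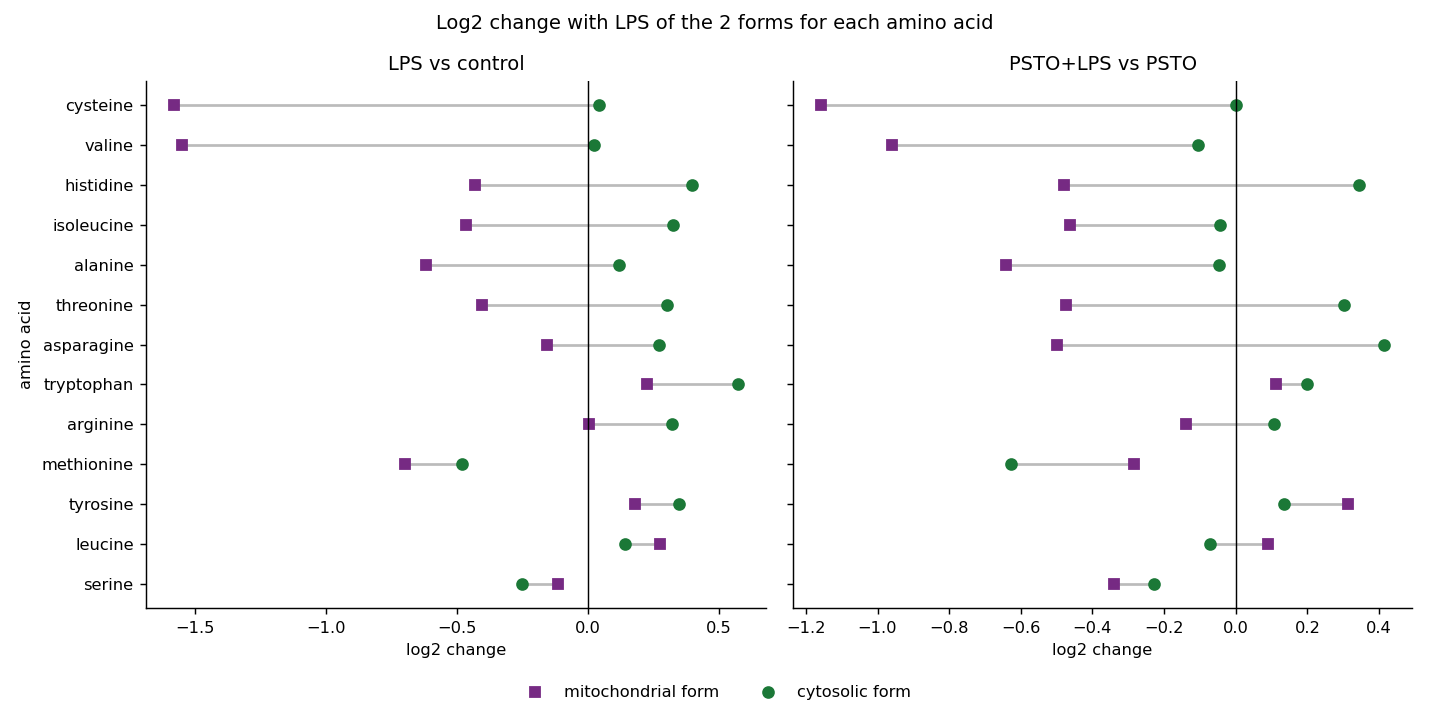
Log2 change of the mitochondrial form (squares) and the cytosolic form (circles) for 13 of the 14 amino acids, in LPS against control (left) and PSTO+LPS against PSTO (right), ordered by the gap in the left panel. The square lies left of the circle in 11 of the 13 pairs drawn on the left and in 10 of 13 on the right.

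PSTO+LPS against PSTO gives the LPS response in cells pretreated with PSTO, and it contrasts other libraries than LPS against control does. These comparisons are not independent, since scaling and spread were estimated over all 12 libraries. Without any 1 PSTO library, LPS against control had 25 members called in place of 30. In PSTO+LPS against PSTO 11 of the 37 members rose and 14 fell. Of all genes tested 59.7% were called there, 29.8% higher and 29.9% lower. Mitochondrial falls again led, with 11 of 17 lower and 2 higher and a median log2 change of -0.46, beside -0.025 over all genes. Of the 18 cytosolic members 7 rose and 3 fell, with a median of 0.095, but with upper-quartile scaling, which moved the median of all genes by -0.113, the balance turned to 5 higher and 7 lower. The mitochondrial class then had 2 higher and 12 lower.

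Farsb rose most, with 109.7, 118.4 and 120.1 CPM in PSTO+LPS, against 64.6, 64.7 and 67.6 CPM in PSTO (log2 change 0.82, SE 0.06, adjusted p = 6.11e-10). Farsa had 119.6, 122.1 and 133.1 CPM in PSTO+LPS, against 82.7, 83.2 and 82.2 CPM in PSTO (log2 change 0.60, SE 0.06, adjusted p = 2.32e-08). Both subunit genes thus separated the groups fully. Kars rose by 0.54 (SE 0.07, adjusted p = 7.26e-07), with 121.2, 134.4 and 145.8 CPM in PSTO+LPS, against 95.1, 87.7 and 92.5 CPM in PSTO. Fars2, the mitochondrial phenylalanine enzyme, rose by 0.45 (SE 0.11, adjusted p = 0.00129), so that all 3 genes for phenylalanine were higher with LPS, both with PSTO and without it.

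Cars2 had 5.30, 5.28 and 4.41 CPM in PSTO+LPS, against 10.8, 11.7 and 10.9 CPM in PSTO (log2 change -1.16, SE 0.15, adjusted p = 2e-06). Vars2 had 16.2, 12.98 and 10.6 CPM in PSTO+LPS, against 27.6, 24.2 and 25.7 CPM in PSTO (log2 change -0.96, SE 0.13, adjusted p = 2.12e-06). These libraries did not overlap between the groups. Pars2 fell by 0.95 (SE 0.24, adjusted p = 0.00251). Mars, at -0.63, had the largest cytosolic fall.

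All 11 members that rose here had also risen in LPS against control, where they made up 61.1% of the 18 rises. All 12 members that fell in LPS against control also fell here, where they made up 85.7% of the 14 falls. Among them were Cars2, Vars2, Pars2, Mars2, Aars2, Iars2, Hars2, Tars2, Mars, Qars and Sars.

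**Figure D4:**
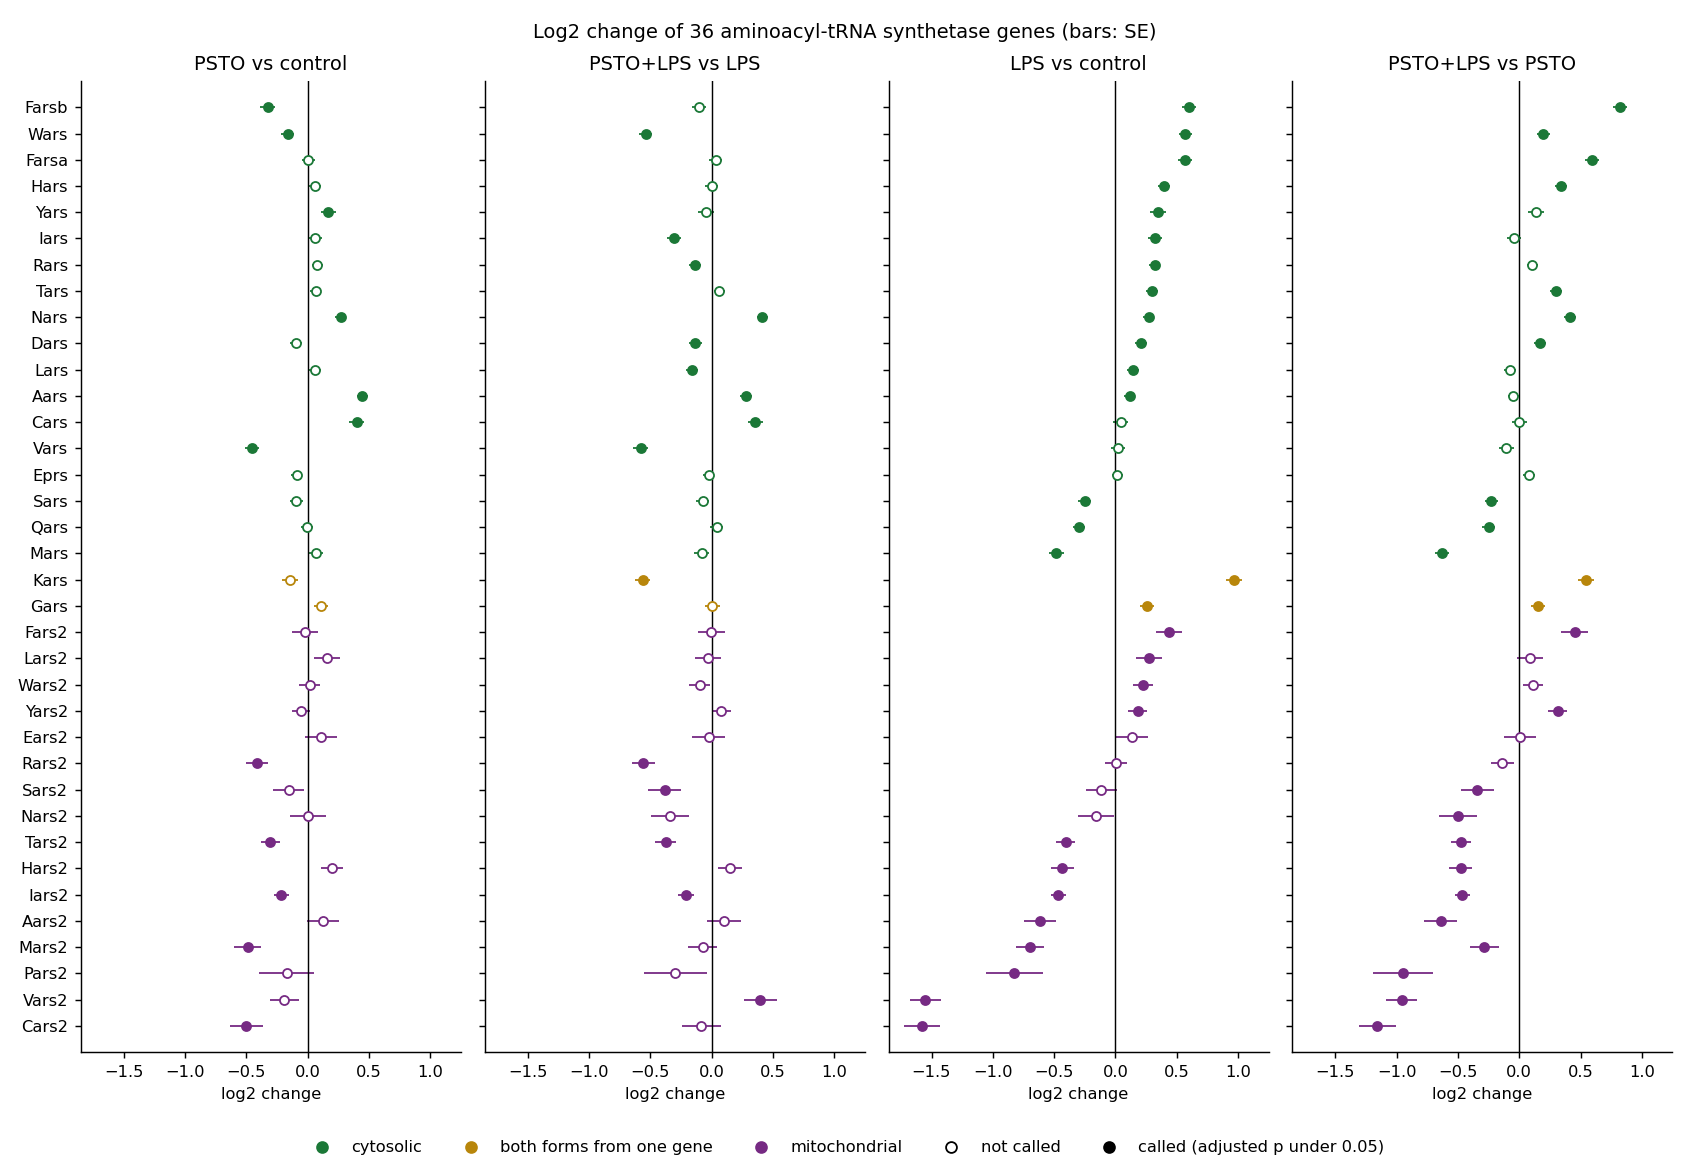
Log2 change (points, with bars of 1 SE) of 36 of the 37 members in 4 comparisons, with cytosolic genes at the top, the 2 genes for both forms below them and mitochondrial genes at the bottom, ordered within each class by the change in LPS against control. Filled points passed an adjusted p of 0.05; mitochondrial genes lie mostly left of 0 in the 2 panels on the right (9 and 11 of all 17 fell), while cytosolic genes lie on both sides (12 rose and 3 fell, then 7 rose and 3 fell, the last balance turning to 5 and 7 with upper-quartile scaling).

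PSTO was set against control to read its effect in cells without LPS. A few cytosolic members rose and several mitochondrial members fell. Of the 37 members 4 rose and 8 fell, and 30.6% of all genes tested were called, 14.8% higher and 15.8% lower, so the members' share of 32.4% was near that of all genes. The 4 rises were all cytosolic, Aars, Cars, Nars and Yars. In the cytosolic class 3 of 18 fell, and in the mitochondrial class 5 of 17 fell. No mitochondrial gene was called higher by edgeR as set out or by DESeq2, and 1, Hars2, was higher at an unadjusted p under 0.05. Lars2 was called higher by edgeR without a filter on low counts and when only these groups were fitted. Median log2 changes were 0.057 for the cytosolic and -0.15 for the mitochondrial class, beside -0.00016 over all genes tested.

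Aars, for alanine, had 235.7, 240.7 and 243.6 CPM in PSTO, against 182.9, 173.1 and 172.6 CPM in control (log2 change 0.45, SE 0.05, adjusted p = 3.95e-07). Cars, for cysteine, had 80.5, 81.5 and 77.1 CPM in PSTO, against 63.9, 57.3 and 59.9 CPM in control (log2 change 0.40, SE 0.06, adjusted p = 3.27e-05). In both genes every PSTO library exceeded every control library. Nars, for asparagine, rose by 0.27 (SE 0.05, adjusted p = 0.000135). Yars, for tyrosine, rose by 0.17 (SE 0.06, adjusted p = 0.048), but that call was lost in 13 of 20 alternatives.

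Among the falls Cars2 again led, with 10.8, 11.7 and 10.9 CPM in PSTO, against 15.3, 16.2 and 15.8 CPM in control (log2 change -0.50, SE 0.14, adjusted p = 0.00818). The cysteine pair thus moved apart, with Cars higher and Cars2 lower. Mars2, for methionine, had 14.1, 16.0 and 15.2 CPM in PSTO, against 22.02, 21.3 and 20.1 CPM in control (log2 change -0.49, SE 0.11, adjusted p = 0.00224). Vars, the cytosolic valine enzyme, fell by 0.45 (SE 0.06, adjusted p = 5.64e-06). Rars2, for arginine in mitochondria, fell by 0.41 (SE 0.09, adjusted p = 0.00143). The groups of these 4 genes did not overlap. Farsb (-0.33), Tars2 (-0.31), Iars2 (-0.21) and Wars (-0.16) were the other falls, and that of Wars was lost without PSTO replicate 1 (adjusted p = 0.057) and without a filter on low counts (adjusted p = 0.0602).

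The effect of PSTO in cells that also received LPS was read from PSTO+LPS against LPS. That comparison contrasts other libraries than PSTO against control does, but both rest on the same fit of all 12 libraries. With LPS present 4 of the 37 members rose and 11 fell, where 38.3% of all genes tested were called, 16.6% higher and 21.7% lower. In the cytosolic class 3 of 18 rose and 6 fell (median log2 change -0.058), and in the mitochondrial class 1 of 17 rose and 4 fell (median -0.072), beside a median of -0.031 over all genes tested. Fitted on the libraries of these 2 groups alone, 9 members were called in place of 15, and the calls of Dars, Lars, Rars, Iars2, Sars2 and Vars2 were lost.

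Nars had 591.5, 554.4 and 534.5 CPM in PSTO+LPS, against 427.5, 423.7 and 411.1 CPM in LPS (log2 change 0.41, SE 0.05, adjusted p = 7.87e-07). Its PSTO libraries had 432.1, 406.1 and 422.8 CPM and its control libraries 343.4, 347.8 and 354.3 CPM, so the PSTO+LPS libraries were the highest of the 12. Cars rose by 0.36 (SE 0.06, adjusted p = 0.000113), and Aars by 0.28 (SE 0.05, adjusted p = 8.17e-05). Vars2 rose by 0.40 (SE 0.13, adjusted p = 0.0245), with 16.2, 12.98 and 10.6 CPM in PSTO+LPS, against 10.97, 9.71 and 9.47 CPM in LPS. These groups overlapped, and the call was lost without PSTO+LPS replicate 1, LPS replicate 2 or LPS replicate 3 (adjusted p between 0.0748 and 0.222).

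Vars fell most, with 113.9, 129.0 and 127.3 CPM in PSTO+LPS, against 190.8, 183.1 and 178.7 CPM in LPS (log2 change -0.58, SE 0.06, adjusted p = 2.49e-07). Kars followed, with 121.2, 134.4 and 145.8 CPM in PSTO+LPS, against 206.1, 195.3 and 191.4 CPM in LPS (log2 change -0.56, SE 0.07, adjusted p = 1.38e-06). The groups of both genes lay apart. Rars2 fell by 0.56 (SE 0.09, adjusted p = 0.000105). Wars fell by 0.54 (SE 0.05, adjusted p = 1.53e-07), with 104.2, 105.8 and 113.5 CPM in PSTO+LPS, against 154.1, 156.1 and 159.5 CPM in LPS. The PSTO+LPS level of Wars overlapped that of the control libraries. Gars had 243.1, 217.6 and 221.7 CPM in PSTO+LPS and its change of 0.0073 (SE 0.06) was not called, with a 95% interval of -0.11 to 0.12.

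The rises of Aars, Cars and Nars recurred with PSTO in both backgrounds. They were 75% of the 4 rises in PSTO against control and 75% of the 4 rises in PSTO+LPS against LPS. Of the falls, Vars, Wars, Rars2, Tars2 and Iars2 were called in both comparisons, 62.5% of the 8 and 45.5% of the 11. The calls of Aars, Cars, Nars, Vars, Rars2 and Tars2 were kept in all 20 alternatives in both comparisons.

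Whether the PSTO effect differed with and without LPS was tested by the interaction, the log2 change of PSTO+LPS against LPS minus that of PSTO against control. Of the 37 members 1 was higher and 5 were lower, where 17.1% of all genes tested were called, 6.96% higher and 10.1% lower. The members' share of 16.2% was near that of all genes. Kars had an interaction of -0.42 (SE 0.09, adjusted p = 0.00312), since it changed by -0.56 in PSTO+LPS against LPS and by -0.14 in PSTO against control, where it was not called. Wars had -0.37 (SE 0.07, adjusted p = 0.00133), from changes of -0.54 and -0.16. Iars, for isoleucine, had -0.37 (SE 0.08, adjusted p = 0.00287), from changes of -0.31 and 0.06. The values of Lars (-0.22, SE 0.07, adjusted p = 0.0387) and Rars (-0.21, SE 0.06, adjusted p = 0.0277) were lost without most single libraries. Vars2 was the member with a higher value, 0.59 (SE 0.18, adjusted p = 0.0272), and it was lost without any of 3 single libraries (adjusted p up to 0.102).

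For Aars, Cars and Nars, whose rises recurred, no interaction was called. The values were -0.17 for Aars (95% interval -0.29 to -0.04, adjusted p = 0.0916), -0.04 for Cars (-0.21 to 0.13, adjusted p = 0.815) and 0.14 for Nars (0.02 to 0.27, adjusted p = 0.149). The intervals of Aars and Nars leave out 0 before adjustment, so equal effects are not shown.

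The multisynthetase complex holds 8 members, Kars included. None of the 8 was called in PSTO against control by edgeR as set out or by DESeq2, where 30.6% of all genes were called by edgeR, and 1, Kars, was lower at an unadjusted p under 0.05. Dars was called by edgeR without control replicate 1, and Kars without control replicate 2. Of the 12 other members with a cytosolic form, 4 rose and 3 fell. With LPS present, PSTO+LPS against LPS, 5 of the 8 complex members fell (Kars, Iars, Lars, Rars and Dars), while of the other 12, 3 rose and 2 fell, beside 16.6% higher and 21.7% lower over all genes. In the interaction 4 of the 8 were lower (Kars, Iars, Lars and Rars) and 1 of the other 12 (Wars), beside 10.1% over all genes. No test of the difference between these 2 subsets was made. The calls of Lars, Rars and Dars in PSTO+LPS against LPS were lost in at least 10 of 20 alternatives, those of Kars and Iars in none of them.

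Partners of the synthetases were read from a list of 14 tested genes for complex scaffolds and for editing or charging steps. In LPS against control 3 rose and 5 fell, and the largest changes were those of Tarsl2, a further threonyl-tRNA synthetase gene that the symbol rule leaves out (-1.25, SE 0.15), Eef1e1, a scaffold protein of the complex (1.19, SE 0.06), and Prorsd1 (-1.09, SE 0.18). PSTO+LPS against PSTO gave 2 higher and 6 lower. In PSTO against control 3 fell, and in PSTO+LPS against LPS 5 fell. The shares called in these 4 comparisons were 57.1%, 57.1%, 21.4% and 35.7%, in that order. Those of all genes tested were 62.9%, 59.7%, 30.6% and 38.3%, so each share called in either direction was below that of all genes. Falls alone made up 35.7%, 42.9%, 21.4% and 35.7% of the list, above the 30.1%, 29.9%, 15.8% and 21.7% of all genes. Rises made up 21.4%, 14.3%, 0% and 0%, below the 32.8%, 29.8%, 14.8% and 16.6% of all genes.

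Of 18 mitochondrial translation factors 3 rose and 5 fell in LPS against control, with a median log2 change of -0.12. The largest were Guf1, a mitochondrial elongation factor (-0.58, SE 0.10), Trit1, a tRNA-modifying enzyme (0.52, SE 0.15), and Mtg1, a GTPase of the mitochondrial ribosome (-0.46, SE 0.11). The counts in PSTO+LPS against PSTO were 2 higher and 7 lower. The shares called in either direction, 44.4% and 50%, were below the 62.9% and 59.7% of all genes tested. Falls made up 27.8% and 38.9% of the list, beside 30.1% and 29.9% of all genes. Rises made up 16.7% and 11.1%, beside 32.8% and 29.8% of all genes. Of 10 cytosolic elongation and termination factors 9 rose and 1 fell in LPS against control, led by Gspt1, a release factor gene (1.92, SE 0.05), Eef2k, the kinase of elongation factor 2 (-1.66, SE 0.16), and Etf1, a release factor gene (0.79, SE 0.05). The same count, 9 and 1, was found in PSTO+LPS against PSTO. All 10 were thus called in both comparisons, beside 62.9% and 59.7% of all genes tested.

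Genes that share ATF4 as a known regulator moved in both directions with PSTO. Of 25 tested ATF4 targets outside the synthetases, 8 rose and 6 fell in PSTO against control, with a median of 0.028. Ddit4, an inhibitor of mTORC1 signalling, rose by 2.16 (SE 0.16), Atf5, a transcription factor gene, by 0.99 (SE 0.06), and Sesn2, a leucine sensor, by 0.93 (SE 0.09). PSTO+LPS against LPS had 4 higher and 10 lower. There Ddit4 rose by 1.28 (SE 0.16) and Atf5 by 1.09 (SE 0.06), while Gpt2, a mitochondrial alanine transaminase, fell by 0.93 (SE 0.15). In each of the PSTO comparisons 56% of the list was called, beside 30.6% and 38.3% of all genes tested.

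Among 10 genes of the eIF2-alpha kinases, Atf4 and its regulators, 2 rose and 2 fell in PSTO against control. That is 40% called, beside 30.6% of all genes tested. Eif2ak2, the interferon-inducible kinase PKR, fell by 0.81 (SE 0.10), Ppp1r15b, an eIF2-alpha phosphatase subunit, rose by 0.51 (SE 0.05), and Atf4 rose by 0.31 (SE 0.04, adjusted p = 2.34e-05). Of 19 tested amino acid transporters 73.7% were called in PSTO against control, 6 higher and 8 lower. They were led by Slc7a11, the cystine exchanger (1.55, SE 0.08), Slc16a10, an aromatic amino acid carrier (-1.02, SE 0.06), and Slc7a8, a neutral amino acid carrier (-0.81, SE 0.06).

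The 24 interferon-stimulated genes all rose in LPS against control, where 32.8% of all genes tested rose. They were led by Gbp5 (10.7, SE 0.27), Gbp2 (10.2, SE 0.24) and Rsad2 (9.32, SE 0.16). In PSTO+LPS against LPS 16 of the 24 fell, where 21.7% of all genes tested fell. Their median was -0.39, beside the fall of 0.54 in Wars. In PSTO against control 18 of the 24 fell, where 15.8% of all genes tested fell. Their median was -1.31, beside -0.16 in Wars. By the interaction Wars and these genes differed. Of the 24, 15 were higher and 0 lower, where 6.96% of all genes tested were higher and 10.1% lower. Their median was 0.915, whereas Wars was lower (-0.37).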

How the data were processed

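RNA of 12 libraries was analysed, 3 in each of 4 groups. The deposited values are whole-number read counts per gene made by the authors, with no normalization. The build mm39 and the tools DESeq2 and HISAT are named per the submitters' processing notes. For the read counter, annotation, strand setting and tool versions, the answer is not given in the sources used here. Testing relied on edgeR 4.0.16 in R 4.3.3 (filterByExpr, TMM, quasi-likelihood test, 1 mean per group over all 12 libraries, Benjamini-Hochberg over 14505 genes, called at an adjusted p under 0.05). SE is the log2 change over the square root of F. The 95% intervals are 1.96 SE to either side, a normal approximation somewhat narrower than the quasi-likelihood test would give. Levels are CPM, counts per 1000000 reads after TMM scaling, given per 1000 bases of the principal GRCm38 transcript where genes are compared. The fit was tested on simulated data.

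Members and lists were chosen with earlier results of these data known. Full statistics are given for the 4 largest rises and 4 largest falls called in each comparison. Values per library are given for the 2 largest of each and for Wars, Gars and Kars. In each list the 3 called genes with the largest change are named, in the comparison where the list is described. For 1 member, which is in all counts and sums, and for part of the promoter sequence, details are not reported here. Tarsl2, in a list, is a synthetase outside the symbol rule. Alternatives were RLE and upper-quartile scaling, no filter, a filter of 50 reads, DESeq2 1.42.0, limma-voom (limma 3.58.1), a fit on the compared groups, a replicate block and leaving out each library. Depth ran from 15817880 to 28625784 reads. Replicates differed beyond sampling noise (chi-square per degree of freedom 4.32 to 14.1 between pairs), and each counts as 1 sample.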

Additional observations from a re-analysis of the deposited data

Results flagged for a closer look

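In 6 synthetase genes the effect of PSTO differed with and without LPS, by the interaction test of edgeR over all genes tested. They were 16.2% of the 37 members, near the 17.1% called among all genes tested. Each value is the log2 change of PSTO+LPS against LPS minus that of PSTO against control. Kars had -0.42 (95% interval -0.60 to -0.24), Wars -0.37 (-0.52 to -0.23) and Iars -0.37 (-0.52 to -0.21), and these 3 kept their call in all 19 alternatives. Lars had -0.22 (-0.35 to -0.08) and lost its call without any of 10 single libraries (adjusted p up to 0.279). Rars had -0.21 (-0.34 to -0.09) and lost it without any of 8 (adjusted p up to 0.245). Vars2 had 0.59 (0.24 to 0.94) and lost it without PSTO+LPS replicate 1, LPS replicate 2 or LPS replicate 3 (adjusted p up to 0.102). In Kars and Wars each PSTO+LPS library lay below each LPS library, and the PSTO and control libraries of Kars overlapped.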

How the results depend on the processing

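Of the calls, 10 of 12 in PSTO against control, 9 of 15 in PSTO+LPS against LPS, 23 of 30 in LPS against control, 19 of 25 in PSTO+LPS against PSTO and 3 of 6 in the interaction were kept in every alternative. Leaving out 1 library gave 10 to 14, 10 to 13, 25 to 30, 21 to 25 and 4 to 6 members called, in that order. Fitting the compared groups alone gave 9 members in PSTO+LPS against LPS. With upper-quartile scaling LPS against control had 11 members higher and 13 lower (41.8% of all calls higher in place of 52.1%), and PSTO+LPS against PSTO had 8 and 19 (41.2% in place of 49.8%). There Aars (-0.034), Eprs (-0.14, adjusted p = 0.0189) and Lars (-0.010) turned negative in LPS against control.

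Replicate numbers in the sample titles did not pair the libraries (correlations of deviations between -0.0275 and 0.0705, and 3 of 12 libraries closest to their own number). With the number as a replicate block 12, 14, 30, 24 and 6 members were called.

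Calls lost without a library were, in PSTO+LPS against LPS, Dars (11 of 12 libraries, adjusted p up to 0.192), Rars (10, up to 0.129), Lars (8, up to 0.086), Sars2 (8, up to 0.18) and Iars2 (4, up to 0.0713). In PSTO against control Yars was lost without 8 (up to 0.282). In LPS against control these were Yars2 (10, up to 0.298), Aars (9, up to 0.239), Lars2 (8, up to 0.261), Wars2 (8, up to 0.145) and Lars (7, up to 0.178). In PSTO+LPS against PSTO they were Mars2 (9, up to 0.195), Sars2 (7, up to 0.208), Gars (3, up to 0.164) and Nars2 (2, up to 0.0602).

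As log2 differences of the sums, PSTO against control gave 0.047 for the cytosolic class (0.029 with RLE factors, 0.025 as a geometric mean), -0.069 for the mitochondrial class (-0.13 as a geometric mean, -0.15 without Lars2) and 0.12 for the ratio (0.20 without Lars2). PSTO+LPS against LPS gave -0.014 for the cytosolic class (0.0019 with RLE factors, 0.024 with upper-quartile factors, -0.055 as a geometric mean, -0.00086 without PSTO+LPS replicate 2). LPS against control gave 0.18 for the cytosolic class (0.030 with upper-quartile factors), -0.16 for the mitochondrial class (-0.31 with upper-quartile factors, -0.41 as a geometric mean, -0.33 without Lars2, -0.089 without LPS replicate 2) and 0.34 for the ratio (0.59 and 0.51). PSTO+LPS against PSTO gave 0.12 for the cytosolic class (0.15 with RLE factors, 0.0073 with upper-quartile factors, 0.099 as a geometric mean), -0.17 for the mitochondrial class (-0.28 with upper-quartile factors, -0.38 as a geometric mean and -0.29 without Lars2) and 0.29 for the ratio (0.48 and 0.41). The sums without Lars2 and with upper-quartile factors were chosen after seeing the data. The cause of these moves was not tested.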

Other observations

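Synthetases fall into catalytic class I and class II by the fold of their active site. In LPS against control 7 of 8 cytosolic class II genes rose and 1 fell, and of 9 cytosolic class I genes 5 rose and 2 fell, beside 32.8% higher and 30.1% lower over all genes. In PSTO+LPS against PSTO the counts were 6 and 1 for class II and 1 and 2 for class I, beside 29.8% higher and 29.9% lower over all genes. With upper-quartile scaling they became 5 and 2 for class II, and 5 lower for class I. In PSTO+LPS against LPS 5 of 9 cytosolic class I genes fell and 1 rose, and of 8 class II genes 1 fell and 2 rose, beside 16.6% higher and 21.7% lower over all genes. Of those 5 falls, Lars lost its call in 10 and Rars in 13 of 20 alternatives. No test of the difference between the classes was made, and Eprs, which holds both kinds of active site, and the 2 genes for both forms were left out.

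The ribosomal RNA genes of mitochondria, mt-Rnr1 and mt-Rnr2, stood at 223 ± 17.8 and 210.5 ± 15.6 CPM in PSTO+LPS, 121 ± 8.44 and 123 ± 13.7 CPM in PSTO, 148 ± 15.9 and 156 ± 10.7 CPM in LPS, and 126 ± 12.4 and 127 ± 13.8 CPM in control (SD, n = 3), with no test.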
